A study of Mus musculus with 9 samples.

Results

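Homeostatic astrocyte genes are those with which astrocytes take up glutamate, pass water and ions and keep their identity. The 9 genes described here, Glul, Slc1a2, Slc1a3, Aqp4, Slc4a4, Gja1, Gjb6, Aldh1l1 and Sox9, were chosen by name for these roles, with earlier results of these data known. All 9 were found among the 49315 gene rows of the count table and among the 18492 genes that passed a filter on low counts. Whole-brain, polyA-selected RNA was sequenced from wild-type male C57BL/6J mice at 2 ages, to ask how the transcriptome changes with age beside the proteome. The young group held 5 mice aged 3 months in the sample labels (the study's methods give 3 or 4 months), and the old group held 4 mice of 33 months, since old replicate 2 was not analysed here. The mice came from a supplier or from in-house breeding, and which mouse came from where was not given in the sources used here. Each library was made from 1 brain and is named by its age and replicate number. With whole tissue, fewer astrocytes and less RNA per astrocyte cannot be told apart.

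Astrocytes clear glutamate released at synapses through the transporters GLT-1 and GLAST and turn it into glutamine, which is handed back to neurons. Their endfeet around blood vessels carry the water channel aquaporin-4, and gap junctions of connexins 43 and 30 couple them into a network. Reactive astrocytes, as seen in injury and ageing, raise intermediate filaments and secreted proteins, and how far the homeostatic genes change with that state differs between settings.

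Libraries held between 14229259 and 21150439 counts, of which the 9 genes together took from 0.502% to 0.546%, and a single one of these genes had between 497 and 52277 counts in a library. Within each age the libraries differed beyond sampling noise, with chi-square over its degrees of freedom no lower than 4.05 for young and 4.84 for old pairs, and each counts as 1 replicate. One young library, replicate 4, stood apart in reactive genes (mean log2 CPM of the reactive astrocyte list 3.17 against 2.35 to 2.57 in the other young mice). Markers of neurons (mean log2 CPM 9.11 to 9.26 over all libraries) and oligodendrocytes (8.02 to 8.32) were abundant throughout, while those of olfactory bulb and cerebellum differed between libraries. The mean log2 CPM of 5 olfactory bulb markers ran from 0.77 to 3.13 in young and from 0.93 to 4.36 in old mice, and that of 6 cerebellar granule cell markers from 6.73 to 7.2 and from 6.20 to 7.04. Between the ages 0 genes of these lists passed edgeR's test, also at an unadjusted p under 0.05, and 0 passed DESeq2's Wald test, while limma on log2(TPM + 1) put 3 cerebellar markers lower in old brain and 0 olfactory ones. Markers of other cells rose in edgeR for 4 of 6 endothelial genes, and fell for 2 of 10 neuronal genes, 2 of 5 of oligodendrocyte precursors and 1 of 5 of ependyma, and 0 of 6 choroid plexus and 0 of 4 Bergmann glia genes passed (0 and 0 at an unadjusted p under 0.05, and 0 and 0 by DESeq2 and limma). Over all genes tested, 11.0% passed in edgeR.

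Of the 9 genes, 1 rose in old brain, Glul, and 0 fell in edgeR's test (2 rose and 1 fell by DESeq2's Wald test, and 0 and 0 by limma on log2 TPM). Of all genes tested, 11.0% passed the same threshold, a p under 0.05 after Benjamini-Hochberg adjustment in edgeR's quasi-likelihood test. Higher in old brain were 6.09% and lower 4.89% (1126 and 905 genes, or 773 and 982 on a scale of TPM centred on each library's median gene). The share of the 9 genes in edgeR was 11.1%, near that of all genes. Over all genes DESeq2's Wald test put 1111 higher and 987 lower, of 35008 with a p-value. Of 18492 genes, limma put 260 higher and 258 lower on log2(TPM + 1), and 252 and 255 on log2(TPM + 0.1). Counts by these tools, here and for the lists below, are to be read beside these and not beside 11.0%. Without young replicate 4, or without young replicate 2 and old replicate 5 (in each age the mouse highest in olfactory bulb markers), 1 of the 9 also rose and 0 fell in edgeR. At an unadjusted p under 0.05 there were 2 higher, Glul and Gjb6, and 2 lower, Gja1 and Sox9, that is 4 of the 9, against 25.5% of all genes. None of the 9 passed an absolute log2 fold change of 0.58 as well, as 2.50% of all genes did, and no alternative took one of them past it. The median log2 fold change of the 9 genes was 0.013, against a median of all genes tested near 0, and 5 of them had values above 0 and 4 below. Their median absolute log2 fold change was 0.12, beside 0.11 over all genes, and their median standard error was 0.045, beside 0.085. At this precision, log2 fold changes past 0.40 in either direction lay outside the 95% interval of each of the 9 genes.

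**Figure D1:**
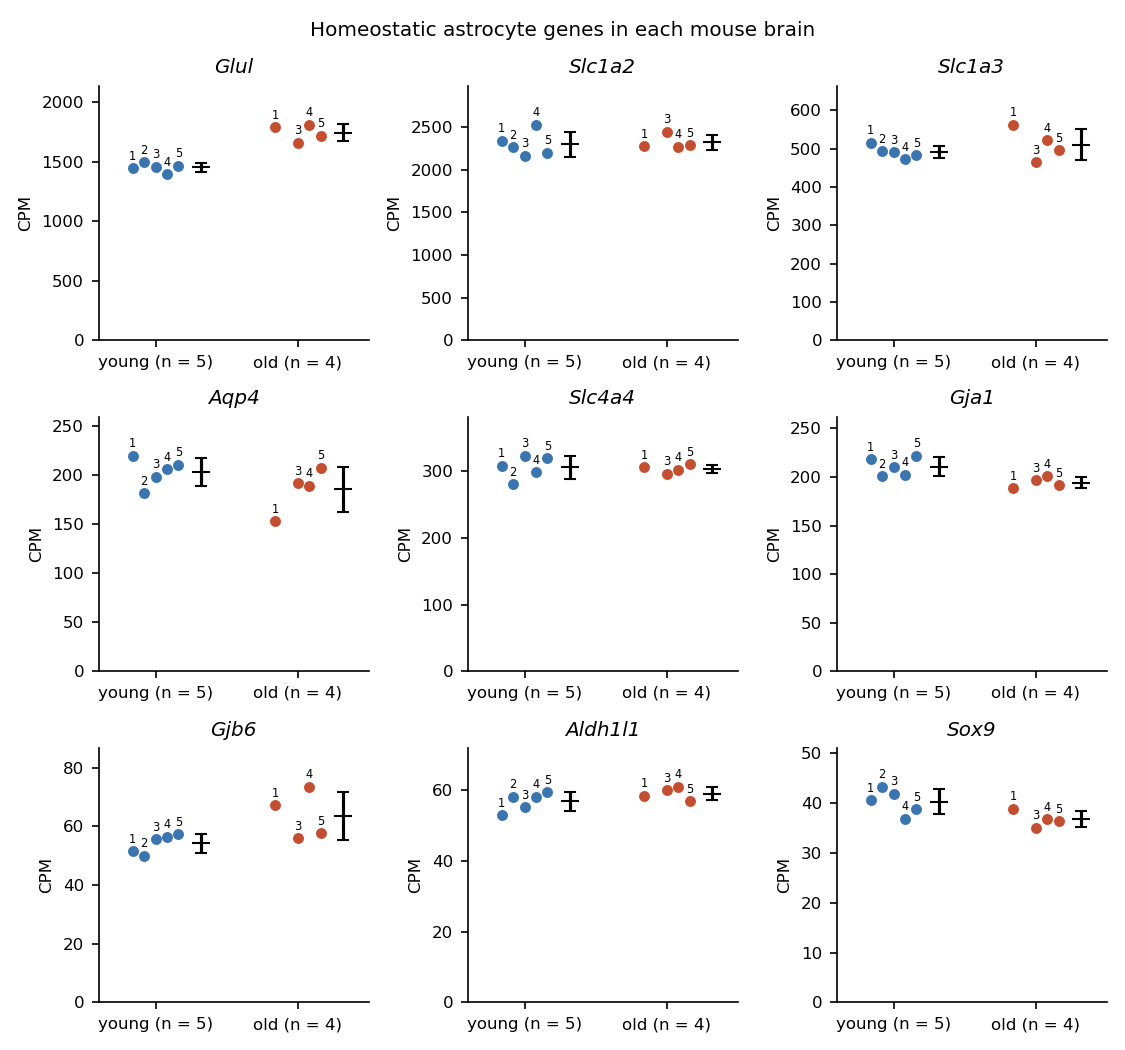
CPM of the 9 homeostatic astrocyte genes (vertical axes from 0, counts scaled per library after TMM normalization) in each young (blue, n = 5) and old (red, n = 4) brain, numbered by replicate. Bars give the mean and SD of each age. For Glul the lowest old value, 1659, lies above the highest young value, 1494, and for the other 8 genes the ages overlap.

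Glul encodes glutamine synthetase, the enzyme that joins ammonia to glutamate. The gene (ENSMUSG00000026473) lies on chromosome 1 from 153899944 to 153909723 on the plus strand (GRCm38). The promoters of Glul and of the connexin genes Gja1 and Gjb6 are shown because Glul was the gene that passed the test and the connexins moved relative to each other (described further on). They are RefSeq windows of GRCm38.p6, 250 bases before to 50 bases after the annotated start. Of the 9 genes, 7 had such an entry, and those of Aqp4 and Sox9 are not shown. Capitals mark the motifs CCAAT (the CCAAT box) and TGAGTCA (an AP-1 site), which were searched on both strands together with TATAAA (the TATA box) and AACAAT (a SOX core).
Glul, chr1:153899679-153899978, plus strand: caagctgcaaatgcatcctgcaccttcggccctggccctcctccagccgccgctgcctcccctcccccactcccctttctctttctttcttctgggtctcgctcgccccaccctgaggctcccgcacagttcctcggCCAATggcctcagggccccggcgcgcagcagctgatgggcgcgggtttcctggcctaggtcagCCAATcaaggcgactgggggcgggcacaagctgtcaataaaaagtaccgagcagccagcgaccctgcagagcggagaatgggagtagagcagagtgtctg
Gja1, chr10:56377050-56377349, plus strand: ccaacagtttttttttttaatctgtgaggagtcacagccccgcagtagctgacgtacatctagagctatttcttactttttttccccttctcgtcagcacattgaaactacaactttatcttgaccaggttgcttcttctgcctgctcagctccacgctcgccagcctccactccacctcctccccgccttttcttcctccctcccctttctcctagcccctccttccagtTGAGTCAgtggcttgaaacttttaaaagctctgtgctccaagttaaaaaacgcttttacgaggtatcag
Gjb6, chr14:57133562-57133861, minus strand: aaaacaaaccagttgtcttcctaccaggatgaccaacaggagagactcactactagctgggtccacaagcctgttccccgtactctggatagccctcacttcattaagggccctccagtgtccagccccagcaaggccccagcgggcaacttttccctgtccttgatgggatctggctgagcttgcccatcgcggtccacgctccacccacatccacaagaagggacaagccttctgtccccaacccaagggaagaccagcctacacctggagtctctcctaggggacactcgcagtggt
In the Glul window CCAAT was found at 113 and at 50 bases before the start. In the Gja1 window TGAGTCA was found at 19 bases before the start, and the Gjb6 window held none of the 4 motifs. Over 32851 promoters of the same length, 37.4% held CCAAT, 13.6% TATAAA, 10.7% AACAAT and 5.2% TGAGTCA. Among the 7 promoters, CCAAT was in those of Glul, Aldh1l1, Slc1a3 and Slc4a4, TATAAA in that of Slc1a3, TGAGTCA in that of Gja1, and AACAAT in 0. The motifs were chosen after the sequences were seen, and a match is a description of the letters.

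Glul was at 1446, 1494, 1457, 1392 and 1466 CPM in young replicates 1 to 5 and at 1787, 1659, 1808 and 1718 CPM in old replicates 1, 3, 4 and 5. All old values lay above all young ones, as they did for 6.50% of all genes tested. The mean rose by 20.2%, from 1451 ± 37.4 CPM (SD, n = 5) to 1743 ± 67.8 CPM (SD, n = 4). The log2 fold change was 0.26, with a standard error of 0.037 and a 95% interval of 0.19 to 0.34 (adjusted p = 0.00024, edgeR's quasi-likelihood test). The adjusted p stayed under 0.05 in 21 of 23 alternatives. It did not on the log2(TPM + 1) and log2(TPM + 0.1) scales (log2 fold change 0.10 and 0.10, adjusted p = 0.751 and 0.746, limma), where the median of all genes lay at -0.14 and -0.16. With the libraries centred on their median gene, log2(TPM + 1) gave Glul 0.24 (adjusted p = 0.0038, limma). Reads of Glul could be shared with few other genes. The pseudogene Glns-ps1, which matches 1126 bases of it at 96.8% identity, had 5 to 19 counts, and Teddm2, which overlaps it on the opposite strand, had 42 to 73 counts, at most 0.299% of those of Glul.

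Slc1a2 encodes GLT-1, the main glutamate transporter of the forebrain, and Slc1a3 encodes GLAST, which is strongest in the cerebellum. Slc1a2 (ENSMUSG00000005089, chromosome 2, 102658659 to 102790784, GRCm38) was at 2340, 2261, 2164, 2525 and 2197 CPM in young replicates 1 to 5 and at 2272, 2444, 2270 and 2290 CPM in old replicates 1, 3, 4 and 5. The ages overlapped, with young replicate 4 the highest and young replicate 3 the lowest of all. The log2 fold change was 0.01 (standard error 0.045, 95% interval -0.08 to 0.11, adjusted p = 0.887, edgeR), and its sign changed in 6 of 23 alternatives. Slc1a3 (ENSMUSG00000005360, chromosome 15, 8634124 to 8710764, GRCm38) was at 516, 493, 490.2, 473 and 483 CPM in young replicates 1 to 5 and at 562, 464, 521 and 495 CPM in old replicates 1, 3, 4 and 5. Its old values held both the highest and the lowest of the 9, and the log2 fold change was 0.06 (standard error 0.047, 95% interval -0.04 to 0.16, adjusted p = 0.490, edgeR), with the opposite sign on both uncentred TPM scales. Within a library, where the scaling cancels, the log2 ratio of Slc1a2 to Slc1a3 on TPM had a mean of 1.60 ± 0.11 over 5 young mice (SD) and of 1.56 ± 0.16 over 4 old mice (SD). The difference of -0.04 was smaller than either SD (two-sided exact permutation test, p = 0.714, the same after adjustment over 2 ratios). It changed sign without young replicate 4 (0.01) and without old replicate 1 (0.02).

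The other genes on a list of glutamate, glutamine and GABA handling changed in both directions. This list also holds transporters of glycine and of neutral amino acids. Of 18 on this list, 1 rose and 4 fell in edgeR (2 and 4 by DESeq2, 0 and 0 by limma on either log2 TPM scale, and 2 and 2 without young replicate 2 and old replicate 5), and the median log2 fold change was -0.03. The share called in edgeR was 27.8%, beside 11.0% of all genes tested. Gpt2, an alanine aminotransferase that exchanges glutamate with alanine, rose from 62.2 ± 2.22 CPM (SD, n = 5) to 75.5 ± 4.83 CPM (SD, n = 4) (log2 fold change 0.28, standard error 0.047, adjusted p = 0.00099 in edgeR). Slc6a9, the glycine transporter GlyT1, fell from 73.4 ± 4.17 CPM to 59.7 ± 5.01 CPM (log2 fold change -0.30, standard error 0.056, adjusted p = 0.0030 in edgeR). Slc1a4, a transporter of neutral amino acids including serine, fell from 63.2 ± 3.90 CPM to 54.8 ± 1.62 CPM (log2 fold change -0.21, standard error 0.049, adjusted p = 0.011 in edgeR). For these 3 genes the ages did not overlap, as for 12.6% of all genes tested, and each kept its direction in all 23 alternatives. The adjusted p stayed under 0.05 in 21 alternatives for Gpt2, 21 for Slc6a9 and 20 for Slc1a4. On log2(TPM + 1) it was 0.725, 0.130 and 0.299 (limma). The metabotropic receptor Grm5 fell by 0.15 on the log2 scale (adjusted p = 0.029, edgeR), with overlapping ages, and passed in 15 of 23 alternatives. The fourth gene that fell, Grm3, is named after its value was seen (log2 fold change -0.20, adjusted p = 0.047, edgeR) and passed in 12 of 23. The 18 genes are not all astrocytic, since Slc1a1 and Grm5 are also used by neurons.

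Aqp4 encodes aquaporin-4, the water channel of the endfeet, and Slc4a4 the sodium bicarbonate cotransporter NBCe1, which handles pH. Aqp4 (ENSMUSG00000024411, chromosome 18, 15389496 to 15410982, GRCm38) was at 219.8, 182, 198, 206 and 211 CPM in young replicates 1 to 5 and at 153, 192, 189 and 208 CPM in old replicates 1, 3, 4 and 5. Old replicate 1 was the lowest of the 9, and the other old mice lay within the young range. The log2 fold change of -0.13 had the widest interval of the 9 genes (standard error 0.085, 95% interval -0.32 to 0.06, adjusted p = 0.368, edgeR), and without old replicate 1 it was -0.05. Slc4a4 (ENSMUSG00000060961, chromosome 5, 88886818 to 89239653, GRCm38) ranged from 280.4 to 323 CPM in young and from 296 to 310.2 CPM in old mice. The old values all fell inside the young range, and the log2 fold change of -0.01 (standard error 0.041, 95% interval -0.10 to 0.08, adjusted p = 0.904, edgeR) changed sign in 4 of 23 alternatives.

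Of 20 other genes of endfeet and of water, potassium and pH handling, 1 rose and 1 fell in edgeR (0 and 1 by DESeq2 and by limma on either log2 TPM scale, and 0 and 2 without young replicate 2 and old replicate 5), with a median log2 fold change of 0.03. This share of 10% is near the 11.0% of all genes tested. Kcnj10, which encodes the astrocytic potassium channel Kir4.1, was at 310.3, 285, 335.5, 313 and 350.5 CPM in young replicates 1 to 5 and at 195, 236, 235 and 255 CPM in old replicates 1, 3, 4 and 5. All old values were below all young ones, as for 6.08% of all genes. The mean fell by 27.9% (log2 fold change -0.47, standard error 0.080, 95% interval -0.65 to -0.29, adjusted p = 0.0047 in edgeR), and the adjusted p stayed at or under 0.024 in all 23 alternatives, from edgeR, DESeq2 or limma. Trpv4, an osmosensitive cation channel, rose from 5.04 ± 0.461 CPM to 6.59 ± 1.03 CPM (log2 fold change 0.39, standard error 0.12, adjusted p = 0.049 in edgeR), and its adjusted p was under 0.05 in 7 of 23 alternatives. Kcnj16, which encodes the partner subunit of Kir4.1, differed by 0.02 on the log2 scale (adjusted p = 0.888 in edgeR), and Kcnj16 was chosen after its value was seen. Kir4.1 is also made by oligodendrocytes, and of 8 oligodendrocyte markers 2 rose and 1 fell.

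**Figure D2:**
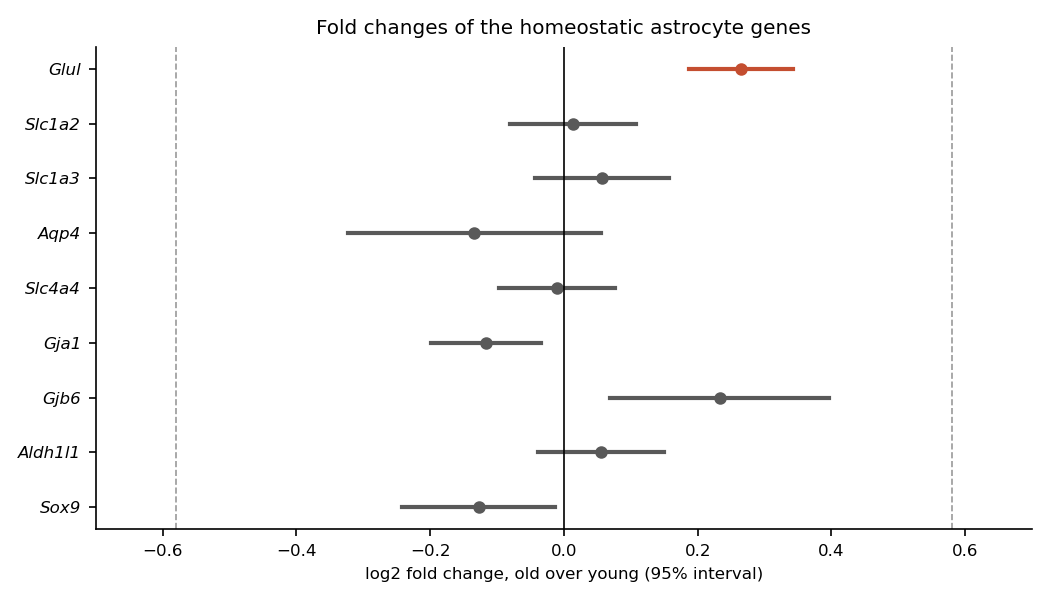
Log2 fold changes of old over young brain (points, edgeR) with 95% intervals (bars) for the 9 homeostatic astrocyte genes. Dashed lines mark a log2 fold change of 0.58 in either direction, and red marks an adjusted p under 0.05. The interval of Glul (0.19 to 0.34) lies above 0, and the intervals of all 9 genes lie between the dashed lines.

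Gja1 and Gjb6 encode connexin 43 and connexin 30, the 2 connexins that form most astrocytic gap junctions. Gja1 (ENSMUSG00000050953, chromosome 10, 56377330 to 56402513, GRCm38) was at 219, 201, 210.2, 202 and 222 CPM in young replicates 1 to 5 and at 188, 197, 201 and 191 CPM in old replicates 1, 3, 4 and 5. Only old replicate 4 reached into the young range, and the log2 fold change was -0.12 (standard error 0.039, 95% interval -0.20 to -0.03, adjusted p = 0.065, edgeR). Gjb6 (ENSMUSG00000040055, chromosome 14, 57123303 to 57133611, GRCm38) was at 51.5, 50.1, 55.7, 56.5 and 57.4 CPM in young replicates 1 to 5 and at 67.2, 56.0, 73.5 and 57.6 CPM in old replicates 1, 3, 4 and 5. Old replicates 1 and 4 were well above every young mouse, old replicate 5 was level with the highest of them and old replicate 3 lay inside their range. The log2 fold change was 0.23 (standard error 0.076, 95% interval 0.07 to 0.40, adjusted p = 0.068, edgeR). Neither passed the threshold over all genes, and both did under DESeq2's Wald test (adjusted p = 0.043 for Gjb6 and 0.045 for Gja1).

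Within each library the ratio of Gjb6 to Gja1 on TPM was 0.322, 0.342, 0.363, 0.382 and 0.354 in young replicates 1 to 5 and 0.488, 0.390, 0.50 and 0.412 in old replicates 1, 3, 4 and 5. All old ratios were above all young ones, with old replicate 3 close to young replicate 4. The log2 ratio had a mean of -1.51 ± 0.09 over the 5 young mice (SD) and of -1.17 ± 0.18 over the 4 old mice (SD), a difference of 0.34 or a 1.26-fold higher ratio (two-sided exact permutation test over 126 splits, p = 0.00794, the smallest it can give; adjusted p = 0.016 over 2 ratios). Both genes were chosen with earlier results of these data known. Their log2 fold changes in the same mice had opposite signs, 0.23 for Gjb6 and -0.12 for Gja1. The ratio restates these changes, so its p is not an independent test of them. The adjustment over 2 ratios does not cover the choice of genes. The difference in the log2 ratio was between 0.28 and 0.40 with any 1 mouse left out. Without a young mouse the smallest adjusted p that the test allows is 0.0571, which was the value reached. The ratio also moved with the regional markers described next.

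**Figure D3:**
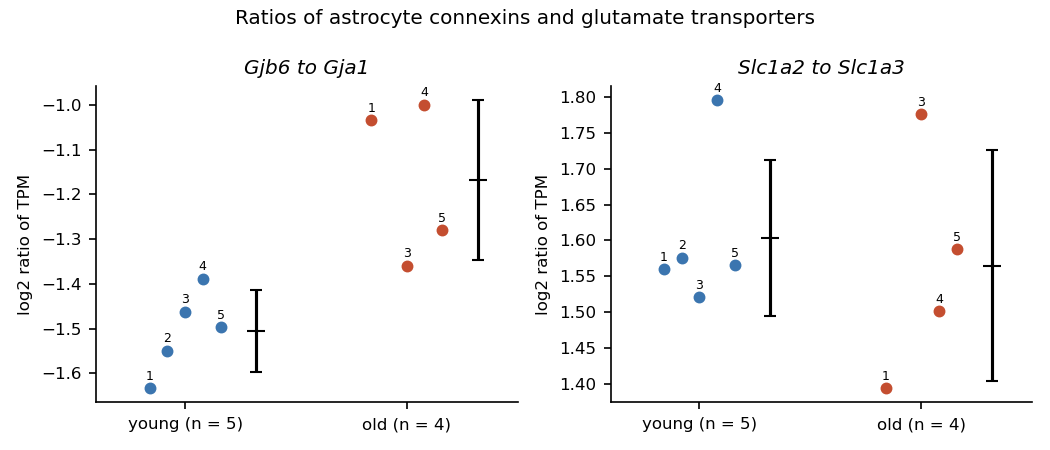
Log2 ratios of TPM within each library (vertical axes, not starting at 0), Gjb6 to Gja1 on the left and Slc1a2 to Slc1a3 on the right, in young (blue, n = 5) and old (red, n = 4) brain, with replicate numbers and the mean and SD. The old ratios of Gjb6 to Gja1 all lie above the young ones, and those of Slc1a2 to Slc1a3 overlap.

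Among 10 other gap junction genes 0 rose and 2 fell in edgeR (1 and 3 at an unadjusted p under 0.05, 0 and 2 by DESeq2, 0 and 1 by limma on log2 TPM), with a median log2 fold change of -0.03. The share called in edgeR was 20%, beside 11.0% of all genes tested. Panx2, a pannexin found mostly in neurons, fell by 0.14 on the log2 scale (adjusted p = 0.044 in edgeR), and passed in 10 of 23 alternatives.

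Aldh1l1, a folate enzyme used as a general astrocyte marker, and Sox9, a transcription factor of astrocyte identity, were the least abundant of the 9 genes on TPM, though not on CPM, where Gjb6 had a lower young mean (54.2) than Aldh1l1 (56.7). Aldh1l1 (ENSMUSG00000030088, chromosome 6, 90486427 to 90600203, GRCm38) ranged from 52.9 to 59.4 CPM in young and from 56.7 to 60.8 CPM in old mice (log2 fold change 0.06, standard error 0.045, 95% interval -0.04 to 0.15, adjusted p = 0.475 in edgeR), with the opposite sign on both uncentred TPM scales. Sox9 (ENSMUSG00000000567, chromosome 11, 112782224 to 112787760, GRCm38) was at 40.5, 43.2, 41.9, 36.8 and 38.7 CPM in young replicates 1 to 5 and at 38.8, 35.0, 36.8 and 36.3 CPM in old replicates 1, 3, 4 and 5. Young replicates 1, 2 and 3 were above every old mouse, and young replicates 4 and 5 lay among the old. Its log2 fold change was -0.13 (standard error 0.054, 95% interval -0.24 to -0.01, adjusted p = 0.147, edgeR), with the same sign and an adjusted p above 0.05 in all 23 alternatives.

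Of 13 other transcription factors of astrocytes 1 rose and 1 fell in edgeR (1 and 1 by DESeq2, 0 and 0 by limma on either log2 TPM scale, and 1 and 0 without young replicate 2 and old replicate 5), with a median log2 fold change of 0.02. That is 15.4% of them, beside 11.0% of all genes tested. Id3, an inhibitor of helix-loop-helix factors, rose from 17.9 ± 2.31 CPM to 24.0 ± 2.09 CPM (log2 fold change 0.43, standard error 0.091, adjusted p = 0.0065 in edgeR). Sox8, a relative of Sox9 that is also used by oligodendrocytes, fell by 0.19 on the log2 scale (adjusted p = 0.031, edgeR), and passed in 11 of 23 alternatives. Of 27 further genes enriched in astrocytes 2 rose and 1 fell in edgeR (4 and 2 by DESeq2, 0 and 0 by limma on either log2 TPM scale, and 4 and 2 without young replicate 4), with a median log2 fold change of 0.02. Their share called in edgeR, 11.1%, was near the 11.0% of all genes tested. Apoe, the lipid carrier of astrocytes and activated microglia, rose from 1428 ± 183 CPM to 1978 ± 75.4 CPM (log2 fold change 0.47, standard error 0.080, adjusted p = 0.0047 in edgeR). The secreted protease Htra1 rose by 0.26 (adjusted p = 0.010, edgeR) and the neurotensin receptor Ntsr2 fell by 0.20 (adjusted p = 0.039, edgeR) on the same scale, and they passed in 20 and 11 of 23 alternatives.

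Genes of reactive astrocytes are given beside the homeostatic ones. Of 20 tested, 10 rose and 0 fell in edgeR (15 and 0 at an unadjusted p under 0.05, 14 and 0 by DESeq2, 8 and 0 by limma on log2 TPM), 9 of them past a log2 fold change of 0.58, and the median log2 fold change was 0.83. The share called in edgeR was 50%, beside 11.0% of all genes tested. Without young replicate 4 there were 15 that rose, and without young replicate 2 and old replicate 5 there were 8. Vim, which encodes the filament protein vimentin, was at 44.6 to 53.3 CPM in young and 84.6 to 109 CPM in old mice (log2 fold change 0.95, standard error 0.072, adjusted p = 9.2e-06 in edgeR). For Gfap, the filament protein of astrocytes, the log2 fold change was 1.07 (adjusted p = 0.091 in edgeR), and for Serpina3n, a secreted protease inhibitor, it was 1.43 (adjusted p = 0.115 in edgeR). Gfap reached 514 CPM in young replicate 4 and 191 to 221 CPM in the remaining young mice. The mean log2 CPM of the 9 homeostatic genes lay between 7.87 and 7.93 in young and between 7.90 and 7.98 in old mice, and that of the reactive genes between 2.35 and 3.17 and between 3.47 and 3.98. In young replicate 4 the mean of the homeostatic genes was 7.90, but among the young mice it had the highest Slc1a2 and the lowest Slc1a3, Glul and Sox9. Several reactive genes, such as C3, C4b and Cxcl10, are also made by microglia, whose 7 markers had a median log2 fold change of 0.21, with 1 that rose (5 without young replicate 4).

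**Figure D4:**
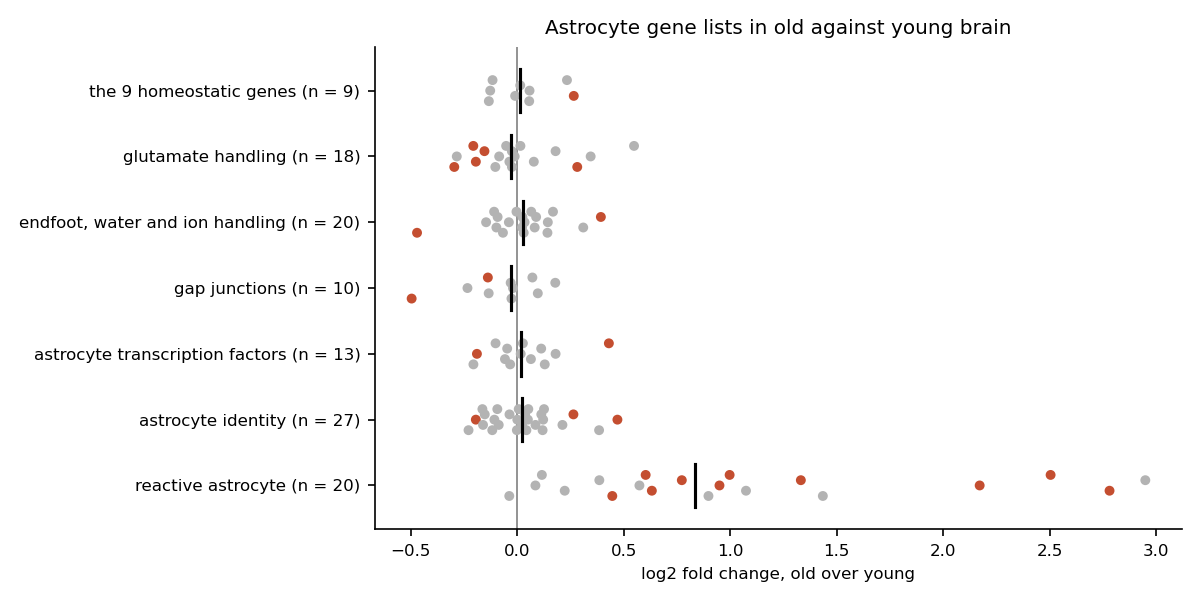
Log2 fold change of old over young brain (horizontal axis, edgeR) for each tested gene of 7 astrocyte lists. Red points have an adjusted p under 0.05, and black bars are medians. The medians of the homeostatic genes and of 5 other lists lie between -0.03 and 0.03, and that of the reactive list is 0.83.

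On the TPM scale, which corrects for gene length, Glul was the most abundant of the 9 genes, with means of 1147 ± 224 TPM over the 5 young and 1217 ± 141 TPM over the 4 old mice (SD). Slc1a2 followed at 456 ± 70.7 and 408 ± 27.1 TPM, then Gja1 at 178 ± 34.3 and 145 ± 10.4 TPM and Slc1a3 at 151 ± 30.3 and 139 ± 22.6 TPM. Aqp4 was at 105 ± 19.6 and 84.3 ± 10.7 TPM, Slc4a4 at 74.5 ± 16.5 and 65.1 ± 7.04 TPM, and Gjb6 at 62.6 ± 12.1 and 65.1 ± 11.3 TPM. Aldh1l1 was at 32.8 ± 5.30 and 30.2 ± 2.26 TPM and Sox9, the lowest, at 25.7 ± 5.94 and 20.6 ± 2.67 TPM. Each gene was above the next in this order in 9 of 9 libraries, except Gja1 over Slc1a3 (8 of 9) and Slc4a4 over Gjb6 (7 of 9). The place of Gja1 depends on the length used. The deposited TPM values imply a length of 3105 bases for Gja1 when set to that of Glul, 30.3% of its exon length in the GENCODE M21 annotation, and 81.5% for Aqp4 and 84.9% for Gjb6, while for the other 6 genes both lengths matched within 0.5%. A single gene, Gm23935, took from 8.68% to 39.5% of a library's TPM. The median log2 fold change of all genes was -0.14 on log2(TPM + 1), so a lower old mean in TPM need not be a fall in CPM. For Slc1a2, lower in old brain in TPM, the log2 fold change in edgeR was 0.01.

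Among mice of one age, some of the 9 genes moved with markers of brain region or of other cells. After the age means were taken out, the correlation over 9 mice with the mean of the 6 cerebellar granule cell markers was 0.83 for Slc1a3, 0.80 for Gjb6 and 0.61 for Glul, and between -0.42 and 0.49 for the other 6 genes. The ratio of Gjb6 to Gja1 had a correlation of 0.70 with these markers and of -0.54 with the olfactory bulb markers, and the ratio of Slc1a2 to Slc1a3 had one of -0.76 with the cerebellar markers. Gjb6 had a correlation of -0.75 with the olfactory bulb markers, and Gja1 one of 0.82 with 8 oligodendrocyte markers. The 6 endothelial markers had correlations of 0.71 with Gjb6, 0.65 with Slc1a3 and 0.62 with Glul. Their mean log2 CPM did not overlap between the ages, with 4.95 to 5.01 in young and 5.20 to 5.33 in old mice, 4 of the 6 rose, and their part in the differences of Glul and Gjb6 was not tested. These correlations are descriptions over the same 9 libraries, which also share their normalization. No cerebellar marker was at 0 in any library, and of the olfactory bulb markers Tbx21 was at 0 in young replicate 1. The cerebellar markers, with a median log2 fold change of -0.30, were lower in old replicates 3 and 5 (6.20 and 6.5) than in old replicates 1 and 4 (7.04 and 6.98). In old replicates 3 and 5 Gjb6, Glul and Slc1a3 were also lower than in old replicates 1 and 4. With the cerebellar markers as a covariate, the log2 fold change of Gjb6 was 0.35 (adjusted p = 0.0015 in edgeR) and that of Glul 0.30. With the olfactory bulb markers in their place that of Gjb6 was 0.33 (adjusted p = 0.0019 in edgeR). Gja1, at -0.12 without a covariate, was at -0.10 with the cerebellar markers (adjusted p = 0.214 in edgeR). With the olfactory bulb markers it was at -0.09 (adjusted p = 0.245 in edgeR). The part of regional content in these differences was not tested further.

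**Figure D5:**
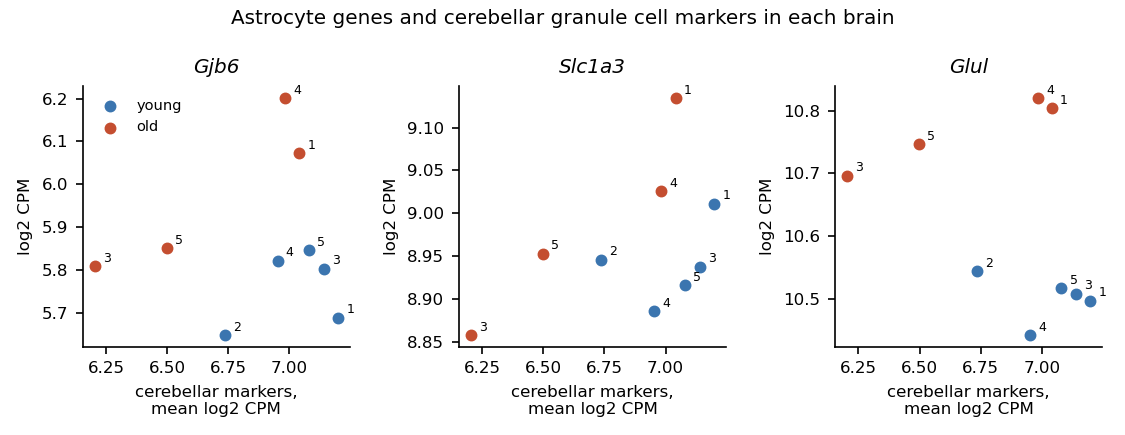
Log2 CPM of Gjb6, Slc1a3 and Glul (vertical axes, not starting at 0) against the mean log2 CPM of 6 cerebellar granule cell markers (horizontal axis) in young (blue, n = 5) and old (red, n = 4) brain, numbered by replicate. Old replicates 3 and 5 have the lowest marker levels, 6.20 and 6.5, and the lowest old values of all 3 genes.

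Between mice of one age, some pairs of the 9 genes moved in the same and others in opposite directions. Over the 9 mice with the age means taken out, Glul and Sox9 had a correlation of 0.75 and Slc1a3 and Glul one of 0.73, while Slc1a2 had one of -0.76 with Glul and of -0.67 with Sox9, and Aqp4 one of -0.63 with Sox9. The SD of the mean log2 CPM of the 9 genes between mice of one age was 0.027. Of 14568 other genes, those most like that mean of the 9 scaled genes were Pam16 (0.96), Uso1 (0.96), Asph (0.96), Wdr92 (0.95) and Dck (0.94), none of them on an astrocyte list. They are the highest of 14568 correlations over 9 mice, where a search can reach high values by itself. Whether these genes vary with the 9 genes beyond that was not tested. Of 77 other astrocyte genes ranked, 7 (9.09%) were among the 5% most alike, the first of them Nfia (0.88, rank 67) and Ndrg2 (0.86, rank 102), and their median correlation was 0.16 against 0.023 for all genes.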

How the data were processed

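PolyA-selected RNA from 9 whole mouse brains was compared between young (n = 5) and old (n = 4) mice, grouped by the sample labels. As the study's methods describe it, the authors trimmed the reads with Trimmomatic, aligned them to GRCm38 with STAR and counted uniquely mapped reads on exons with featureCounts, without a statement on strand for these libraries; the submitters' notes name mm10 and DESeq2. The authors deposited these as whole, unnormalized read counts. They also deposited TPM values, whose gene lengths they do not give. The authors' normalized counts were not used, and 1 further column of per-sample values in each table matched no sample used here.

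Genes were kept with filterByExpr (minimum count 10, minimum total 15), normalized with TMM and tested with edgeR's quasi-likelihood test (robust estimation, Benjamini-Hochberg over 18492 genes, threshold 0.05). CPM are TMM-normalized, and their log2 values had a prior count of 2 added. Standard errors follow from the fold change and its test statistic. With 9 mice, the exact permutation test has 126 splits and cannot give a p below 0.00794. The labels do not say more of the replicates than their number, while the study calls them biological replicates, 1 brain each. The members and lists were chosen with earlier results of these data known. The genes named are the 9 members, of each list up to 3 genes higher and 3 lower by lowest p among those past the threshold, Gfap, Vim and Serpina3n of the reactive list, and the 5 genes most correlated with the members' mean among those with a log2 CPM of at least 1; any other gene was named with its value known. The fit was tested on simulated data. GENCODE M21 gave a symbol for 49056 of the gene IDs and none for 259. Copies were searched with BLAST 2.17.0 at 95% identity over 300 bases. Alternatives were other size factors, filters, tools (limma on log2(TPM + 1) and log2(TPM + 0.1), or the Wald test of DESeq2), covariates (1 surrogate variable, regional markers), the replicate number as a block, thresholds and each mouse left out. A fit without robust estimation, one without young replicate 2 and old replicate 5 together and TPM centred on each library's median gene were added after the data were seen. Software comprised edgeR 4.0.16, DESeq2 1.42.0, limma 3.58.1 and sva 3.50.0 in R 4.3.3, and scipy 1.17.1 in Python 3.11.15. Depth was from 14229259 to 21150439 counts per library. Some genes under the naming rule are left out here.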

Additional observations from a re-analysis of the deposited data

Results flagged for a closer look

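In 62 sets of values of 1 age (genes, lists and ratios), Dixon's ratio of the gap next to an extreme mouse to the whole range was examined, and 6 passed its 95% value, where chance gives 3.1. Slc1a2 was highest in old replicate 3, where its log2 CPM was 11.26, with the other old mice between 11.15 and 11.16 (ratio 0.880). Young replicate 4 was the extreme mouse in 4 of the 6. Its log2 ratio of Slc1a2 to Slc1a3 was 1.80 against 1.52 to 1.58 in the other young mice (ratio 0.799). Its log2 CPM of Gfap was 9.01 against 7.58 to 7.79 (ratio 0.853), and that of Serpina3n 5.86 against 3.69 to 4.06 (ratio 0.828). Over the reactive astrocyte list its mean log2 CPM was 3.17, with the others between 2.35 and 2.57 (ratio 0.733). The olfactory bulb markers averaged a log2 CPM of 3.13 in young replicate 2 and from 0.77 to 1.20 in the remaining young mice (ratio 0.817).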

How the results depend on the processing

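Of the log2 fold changes of the 9 genes over 23 alternatives, 181 of the values kept their direction and their side of the threshold. The number of the 9 genes that rose was 2 under DESeq2's Wald test, with every gene with a count tested and with either set of regional markers as a covariate, from 1 to 2 with each mouse left out, and 0 on both TPM scales and with a log2 fold change over 0.58. The number that fell was 1 under DESeq2's Wald test, with every gene tested and on centred TPM, and from 0 to 1 with each mouse left out. Glul kept an adjusted p under 0.05 except on the 2 uncentred TPM scales, Gjb6 passed in 6 alternatives (among them without old replicate 3, adjusted p = 0.025, and without old replicate 5, 0.039) and Gja1 in 4 (among them without young replicate 2, 0.047). Over all genes 518 and 507 were called on log2(TPM + 1) and log2(TPM + 0.1), 463 with a log2 fold change over 0.58, 873 at an adjusted p under 0.01 and from 1516 to 2034 with each mouse left out, beside 2031. The median log2 fold change of the 9 genes was -0.15 on both TPM scales and between -0.00026 and 0.043 with each mouse left out (0.043 without young replicate 4). Directions turned for Slc1a2 (-0.15 on both TPM scales, -0.023 with the cerebellar markers, -0.011 on centred TPM, -0.014 to 0.049 with each mouse left out), for Slc1a3 (-0.11 on both TPM scales), for Aldh1l1 (-0.11 on both) and for Slc4a4 (0.026 and 0.014 with the cerebellar and olfactory bulb markers, -0.037 to 0.0087 with each mouse left out). For Slc4a4 the value without both young replicate 2 and old replicate 5, -0.049, kept its direction. The median of all genes was -0.14 on log2(TPM + 1) and -0.16 on log2(TPM + 0.1), and the other causes were not tested. The difference in the log2 ratio of Gjb6 to Gja1 was 0.28 to 0.40 with each mouse left out, with an adjusted p of 0.0357 to 0.0571, and that of Slc1a2 to Slc1a3 was -0.11 to 0.018. The deviations of same-numbered young and old mice from their age means had correlations of 0.17, -0.12, 0.088 and -0.024. Of the 4 old mice, 1 correlated best with the young mouse of its own number. These values cannot show whether same-numbered mice share more than a number, and the labels do not say. With the replicate number as a block, 1039 genes were higher and 789 lower, the calls of the 9 genes did not change, and the ratio of Gjb6 to Gja1 differed by 0.33 over 4 pairs (exact sign-flip test, adjusted p = 0.25, where 4 pairs cannot give an unadjusted p below 0.125). Levels in whole tissue, 4 old mice and TPM lengths that are not given limit these values.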
